A study of Mus musculus with 35 samples.

Results

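Growth genes known as direct targets of the transcription factor Myc were followed across 35 microarrays of mouse induced pluripotent stem (iPS) cell clones, embryonic stem (ES) cells and the cells that the clones came from. The set held 10 of the 27962 gene names on the array, Ncl, Npm1, Fbl, Odc1, Cad, Nme1, Eif4e, Cdk4, Tfrc and Nolc1, and all probes that carry these names on the array were taken, 22 of 41174 gene probes. All 22 passed the filter on dim probes, as did 27623 probes in all. One of them, an Eif4e probe (A_52_P1035759), passed through the ES arrays alone, being well above background in both of these but in 5 of 30 clones, so the main counts of calls that include it are also given without it, over 21 probes. The rule takes genes by name from what is known of Myc and uses no measured value, although the set was chosen with earlier results of these arrays known.

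The 30 clones formed 6 groups of 5. PaS cells (PαS in the study, sorted from bone marrow as CD45-Ter119-PDGFRα+Sca-1+ mesenchymal stem cells), OP cells (osteo-progenitors of bone marrow, negative for PDGFRα and Sca-1) and tail tip fibroblasts (TTF) were taken from adult mice that carry a Nanog-GFP-Puro reporter, and were infected with retroviruses. The 4F-clones received Oct3/4, Sox2, Klf4 and c-Myc, and the 3F-clones received the same factors without c-Myc. Each clone was a separate line, grown on SNL feeder cells, which are fibroblasts. The 2 ES arrays were of EB-3 and RF8 cells, and PaS, OP and TTF cells before infection had 1 array each. Every sample was total RNA labelled with Cy3. Values are log2 signals after scaling each array to its 75th percentile, given as the difference from the mean of both ES arrays, and a call is a Benjamini-Hochberg adjusted p under 0.05 in limma over all 27623 probes.

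Myc is a transcription factor that pairs with Max and binds E-boxes, of which CACGTG is the best known, near the starts of many genes. Its targets are rich in genes for making ribosomes, proteins and nucleotides and for entering the cell cycle. In ES cells, which divide fast, such genes are known to be active, and c-Myc is among the factors that are used to make iPS cells but can be left out.

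The reference against which the genes were read was a Myc probe in the coding sequence, on mm7 chr15:62063665-62063724, plus strand. A transcript of the mouse gene and a transcript of a c-Myc coding transgene would both bind it, so its sequence is shown:
Myc coding probe: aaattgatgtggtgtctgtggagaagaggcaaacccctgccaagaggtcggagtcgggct
Of the promoters from RefSeq (GRCm38.p6, 250 bases before to 50 after a start), 8 of the 10 genes had an entry, and 3 of them, Cdk4, Nme1 and Eif4e, held CACGTG, a motif that reads the same on both strands. Of all 32851 promoter windows 7.15% held it, and of all 27025 genes with a window 8.09% held it in at least 1. The Cdk4 window held 4 copies, at 172, 118, 98 and 11 bases before the start, a number reached or passed by 8 windows (0.0244% of all). Both Nme1 windows held 1 copy, and of the Eif4e windows the second held 2. The windows of Ncl, Odc1, Cad, Tfrc and Nolc1 did not contain these letters, and bases outside the windows were not searched. Eif4e, which also held the motif, had r = 0.125 with Myc on its brightest probe. A link between motif and correlation was not tested. The stretches before the start of Cdk4 and Nme1 are shown with the motif in capitals, since these genes had the highest correlations with Myc among the 10:
Cdk4, GRCm38.p6 chr10:127063343-127063534, plus strand: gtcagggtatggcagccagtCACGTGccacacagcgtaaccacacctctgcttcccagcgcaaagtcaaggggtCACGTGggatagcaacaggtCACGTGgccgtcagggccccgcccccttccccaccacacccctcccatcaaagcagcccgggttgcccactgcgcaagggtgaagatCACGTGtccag
Nme1, GRCm38.p6 chr11:93968273-93968310, minus strand: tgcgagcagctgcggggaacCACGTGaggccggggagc

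The Myc coding probe was read first, because it checks the labels. In 4F-PaS-iPS clones #1 to #5 Myc lay at 0.84, 1.53, -1.15, -0.15 and -1.48 relative to ES, and in 3F-PaS-iPS clones at -1.56, -1.50, -1.48, -1.21 and -1.43. In 4F-OP-iPS clones it was 5.63, -0.29, 4.81, 0.75 and 3.78, and in 3F-OP-iPS clones 3.89, -0.68, 2.83, -1.92 and -1.37. In 4F-TTF-iPS clones it was 3.01, 2.40, 1.45, 1.86 and 2.82, and in 3F-TTF-iPS clones -0.82, -0.99, -1.17, -1.91 and -1.79. Thus 11 of 15 4F-clones and 2 of 15 3F-clones lay above ES. The 2 clones labelled 3F-OP-iPS #1 and #3 went against their labels on this probe, while 4F-PaS-iPS #3 and #5, labelled with c-Myc, were as low as 3F-clones. A second Myc probe (A_52_P108346), further downstream, followed the first (r = 0.991 over 30 clones), whereas the most downstream one (A_51_P102096) did not (r = -0.0242). On the latter all 30 clones were below both ES arrays. Because of the 2 clones that go against their labels, the 3F minus 4F contrast over the sources and the relations with Myc are also given without them.

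**Figure D1:**
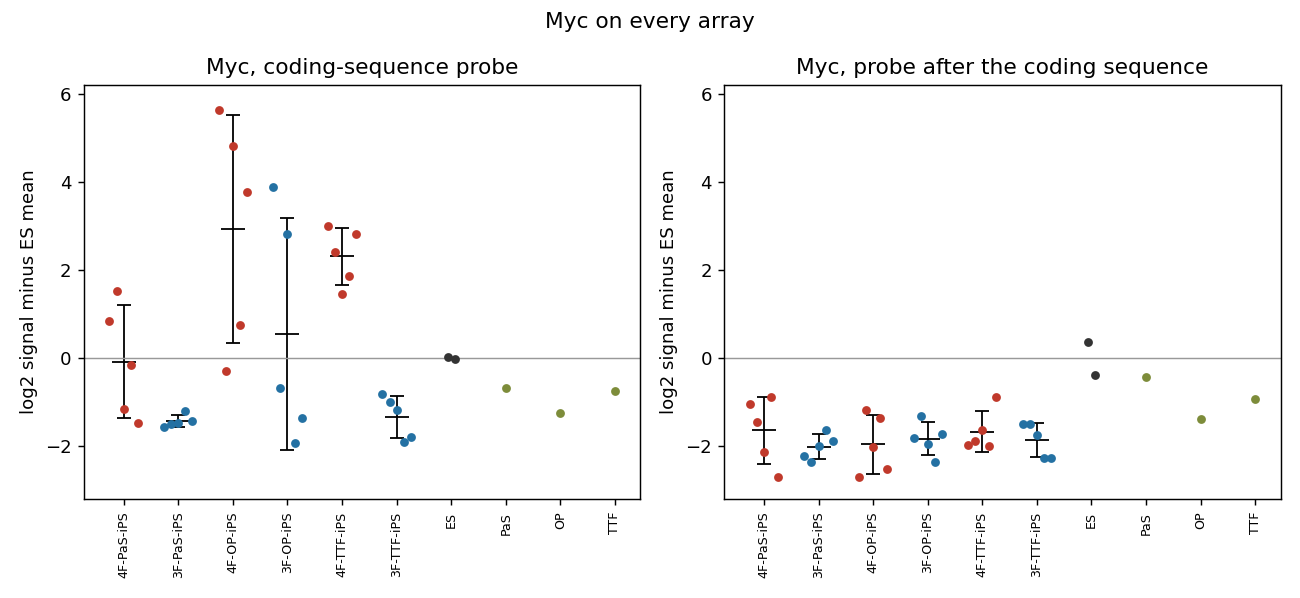
Myc on every array, as log2 signal minus the mean of the ES arrays (y axis) by group (x axis), for the coding-sequence probe (left) and the probe downstream of it (right). Points are arrays and bars are the mean ± SD of 5 clones; 3F-OP-iPS #1 and #3 stand at 3.89 and 2.83 on the coding probe among 3F-clones that are otherwise between -1.92 and -0.68.

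Of the related factors, Mycn, which is high in ES cells, was well above background in all 30 clones and both ES arrays on both its probes. In the 3 source arrays it was not well above background, except for 1 of its probes (A_52_P536494) in PaS cells. Mycl1 was also well above background in all clones, and Max, the partner of Myc, lay between 0.23 and 1.18 above the ES mean in the 30 clones. Max differed by 2.09 between the ES arrays, EB-3 over RF8.

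3 clones, 4F-OP-iPS #1 and #3 and 4F-TTF-iPS #1, had low Sox2 and Nanog (Nanog at -9.68, -11.78 and -9.60), and 2 of them had the highest Myc values of all. Clones and slides were tied: the 30 clones sat on 8 slides, of which only 1 held both 3F- and 4F-clones, so most of any slide effect cannot be told apart from the number of factors. The share of probes well above background was between 56.6% and 71.1% per array. Over the lists of markers, 7 pluripotency genes were at a mean of -6.69 to -0.48 in 4F-clones and -2.83 to -0.79 in 3F-clones relative to ES, and 10 fibroblast genes at 3.12 to 5.39 and 3.58 to 6.36. Across the 30 clones the mean of the pluripotency genes had r = -0.519 with Myc, and r = -0.0627 without the 3 clones low in Sox2 and Nanog. On this mean those 3 clones were at -6.51, -6.69 and -5.79. Another clone, 4F-OP-iPS #2, was as low, at -5.98, with Myc at -0.29, and stays in all fits without the 3. The 4 bone markers had r = -0.588 with Myc, and were at 0.75 to 1.76 (median 1.07) in 4F-clones and 1.11 to 2.09 (median 1.45) in 3F-clones. The fibroblast markers had r = -0.435, with medians of 4.16 in 4F- and 4.65 in 3F-clones, and the 5 blood markers r = -0.192, with medians of 0.34 and 0.46. In any clone only 2 or 3 of the 4 bone markers and 1 to 3 of the 5 blood markers were well above background. The means of these 2 lists thus also hold background signal. The part of these markers in the results below was not tested.

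The first comparison asks whether the genes were lower where c-Myc was left out. Over the 3 sources, 10 of 22 probes, of 8 genes, were called lower in 3F- than in 4F-clones and 0 were higher. Of all probes tested, 9.89% were called lower and 11.3% higher. The median difference was -0.32 on the log2 scale over the 22 probes and 0.03 over all probes. The brightest probe of each of the 10 genes had a negative difference, and 6 of these, for Tfrc, Nme1, Cdk4, Fbl, Ncl and Nolc1, passed the test, while Odc1 and Eif4e were called on another of their probes. Without the 2 clones labelled 3F-OP-iPS that are high in Myc, 11 probes of the same 8 genes were called (10.9% of all probes lower). Without the 3 clones low in Sox2 and Nanog, 8 probes were called (6.47% of all), and those of Eif4e and Nolc1 were not among them. With the slide as a random block, 5 probes, of Cdk4, Fbl, Ncl, Nme1 and Tfrc, were called (1.88% of all).

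**Figure D2:**
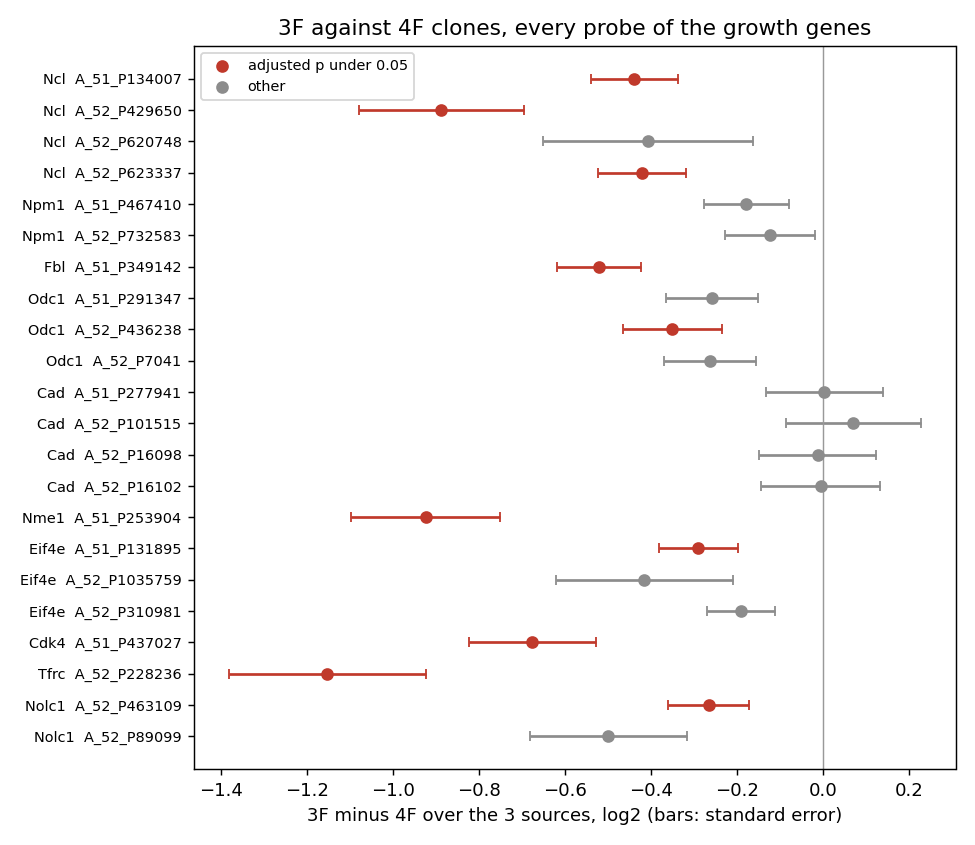
Difference of 3F- minus 4F-clones over the 3 sources (x axis, log2) for each of the 22 probes (y axis), with the standard error from limma. The red points are the 10 probes called, all to the left of 0, and the 4 Cad probes lie at 0 within their errors.

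Tfrc, the transferrin receptor through which cells take up iron, had the widest spread. In 4F-PaS-iPS clones #1 to #5 it was at -0.67, -0.26, -0.46, -0.43 and -0.86, and in 3F-PaS-iPS clones at -0.95, -1.41, -1.34, -1.77 and -1.62, so the groups did not overlap. In OP clones Tfrc ranged from -2.83 to -0.04 with 4 factors and from -3.85 to -1.55 with 3, with overlap, and in TTF clones from -1.32 to -0.71 and from -3.29 to -1.86, without overlap. Tfrc fell by 1.15 ± 0.23 (SE) on the log2 scale in 3F-clones over the 3 sources, a 2.22-fold difference (limma, adjusted p = 0.00103). The 4F-PaS-iPS clones #3 and #5, low on the Myc probe, had Tfrc above every 3F-PaS-iPS clone.

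Nme1, a nucleoside diphosphate kinase that balances the pools of nucleotides, showed another pattern. In 4F-PaS-iPS clones #1 to #5 it was at -0.89, -1.25, -2.80, -0.83 and -2.24, and in 3F-PaS-iPS clones at -2.52, -2.48, -2.53, -2.79 and -2.53. Here clones #3 and #5, the ones low in Myc, lay at -2.80 and -2.24, with the former below every 3F-PaS-iPS clone and the latter just above them. In 4F-OP-iPS clones Nme1 was at -0.97, -2.09, -1.17, -1.10 and -2.21 and in 3F-OP-iPS clones at -2.34, -2.34, -2.41, -2.24 and -2.48, without overlap, and the 2 clones of the latter that are high in Myc did not stand out. In TTF clones it ranged from -1.57 to -0.46 with 4 factors and from -2.45 to -1.75 with 3, again without overlap. Nme1 fell by 0.92 ± 0.17 (SE) over the sources, 1.90-fold (adjusted p = 0.000641).

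Cdk4, the kinase that drives cells past the G1 phase with D-type cyclins, was at 0.15, -0.44, -1.31, 0.21 and -1.43 in 4F-PaS-iPS clones #1 to #5 and at -1.02, -1.07, -1.49, -1.52 and -1.43 in 3F-PaS-iPS clones. The 4F-clones #3 and #5 again sat among the 3F-clones. In OP clones Cdk4 was at -0.51, -1.13, -0.73, -0.49 and -0.88 with 4 factors and at -0.96, -1.31, -1.17, -1.38 and -1.33 with 3, so the groups overlapped, and the 2 highest of the latter were the clones high in Myc, #1 and #3. In TTF clones it ranged from -0.64 to -0.27 and from -1.60 to -1.09, with no overlap. Cdk4 fell by 0.68 ± 0.15 (SE), 1.60-fold (adjusted p = 0.00217).

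Next came genes of the nucleolus, where ribosomes are made. Fbl, fibrillarin, the methyltransferase that modifies ribosomal RNA, lay between -1.37 and -0.26 in 4F-PaS-iPS clones and between -1.51 and -1.02 in 3F-PaS-iPS clones. It ranged from -1.25 to -0.51 and from -1.59 to -1.28 in 4F- and 3F-OP-iPS clones, and from -1.18 to -0.84 and from -1.62 to -1.45 in 4F- and 3F-TTF-iPS clones, so these groups did not overlap in OP and TTF clones. Fbl fell by 0.52 ± 0.10 (SE), 1.43-fold (adjusted p = 0.00060). Ncl, nucleolin, which binds nascent ribosomal RNA, fell by 0.42 ± 0.10 (SE) on its brightest probe, 1.34-fold (adjusted p = 0.00473), and 3 of its 4 probes were called. With the slide as a random block or with normexp the brightest Ncl probe lost its call (adjusted p = 0.0790 and 0.0823), and of the Ncl probes A_52_P429650 alone was called. Nolc1, a chaperone of nucleolar particles, fell by 0.27 ± 0.09 (SE) on its brightest probe (adjusted p = 0.0426), and its other probe had -0.50 ± 0.18 (SE) and missed the threshold (adjusted p = 0.0509). The brightest Nolc1 probe lost its call in other limma fits. Its adjusted p was 0.247 with normexp, 0.244 with the slide as a random block and 0.0519 with the clone number as a block.

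The remaining genes moved less. Npm1, nucleophosmin, a chaperone of ribosome assembly, had a difference of -0.18 ± 0.10 (SE, adjusted p = 0.209) on its brightest probe. In PaS clones #1 to #5 Npm1 was at 0.20, -0.06, -0.64, 0.43 and -0.15 with 4 factors and at -0.35, -0.75, -0.78, -0.75 and -0.82 with 3, yet in TTF clones the 3F-clones, at -0.64 to -0.35, were mostly above the 4F-clones, at -0.84 to -0.60. Odc1, the first enzyme of polyamine synthesis, had -0.26 ± 0.11 (SE, adjusted p = 0.0838) on its brightest probe and was called on 1 of 3, at -0.35 ± 0.11 (adjusted p = 0.0298). Eif4e, which binds the cap of messenger RNAs, had -0.19 ± 0.08 (SE, adjusted p = 0.0869) on its brightest probe and was called on another, at -0.29 ± 0.09 (adjusted p = 0.0249). Cad, which starts pyrimidine synthesis, had differences between -0.01 and 0.07 on its 4 probes, each with a SE of 0.14 to 0.16.

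By source, the calls were fewer. In TTF clones 4 probes were called lower in 3F-clones (4.36% of all probes): Tfrc by 1.30 ± 0.40 (SE, adjusted p = 0.0373), Nme1 by 0.95 ± 0.30 (adjusted p = 0.0428), Cdk4 by 0.81 ± 0.26 (adjusted p = 0.0436), and the Eif4e probe that passed through the ES arrays alone, for which no fold is given, so 3 of 21 were called without it. Without 4F-TTF-iPS #1, low in Sox2 and Nanog, only that dim probe was called (2.04% of all probes). With the slide as a fixed or a random block 0 were, where 0.0145% and 0.00362% of all probes were called lower, so these counts lie at the background. Without the dim probe, leaving out a TTF clone took the 3 to between 0 and 2, and 6 were called without 4F-OP-iPS #4 (4.63% of all). In OP clones Tfrc alone was called, falling by 1.28 ± 0.40 (SE, adjusted p = 0.0447; 3.26% of all probes), a call close to the threshold. This call was lost with normexp, no filter, the slide as a random block or without the clones low in Sox2 and Nanog. Leaving out 1 clone ended it for 4F-OP-iPS #1, #4 and #5, 3F-OP-iPS #1, #2, #4 and #5, 3F-PaS-iPS #2, #3 and #5, 4F-TTF-iPS #2, #3 and #4, and 3F-TTF-iPS #2 and #3. The count was 2 without 4F-PaS-iPS #4 (3.46% of all probes), 3 without 4F-PaS-iPS #3 (3.43%) or 4F-OP-iPS #2 (3.76%), and 4 without 4F-OP-iPS #5 (4.33%), the last of Eif4e, Fbl, Ncl and Nme1 and not of Tfrc. In PaS clones 0 of 22 were called by limma (0.0145% of all probes), and 11 had an unadjusted p under 0.05, as did 17.3% of all probes in either direction. Without 4F-PaS-iPS #3, which is low in Myc, 9 were called (2.32% of all probes lower), among them Nme1 at -1.27 ± 0.27 (SE, adjusted p = 0.0204) and Cdk4 at -0.93 ± 0.25 (adjusted p = 0.0407), and without #5, 2 were (0.525% of all).

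Counted by overlap, in PaS clones 1 probe had every 3F-clone below every 4F-clone (1.12% of all probes), in OP clones 2 did (2.70%), and in TTF clones 8 did, of 6 genes (8.97%). The difference between sources in the 3F minus 4F contrast was tested for each pair of sources, and 0 probes were called in all 3 tests, against 0.691% of all probes for PaS and OP, 0.615% for PaS and TTF and 0% for OP and TTF. Unadjusted p-values under 0.05 were seen for 3, 4 and 1 of the 22 probes, and for 18.9%, 19.3% and 3.72% of all probes. The 3F minus 4F difference of Npm1 was lower in PaS than in TTF clones by 0.86 ± 0.24 (SE) on its brightest probe and by 0.89 ± 0.26 on the other, several times the standard error though short of the threshold (adjusted p = 0.0758 and 0.0800). For the Ncl probe A_52_P620748 the difference of PaS minus OP clones was -1.74 ± 0.60 (adjusted p = 0.123), and for Nme1 the 3 differences were between -0.12 and 0.10, each ± 0.42. Without 4F-PaS-iPS #3 both Npm1 probes were called between PaS and TTF clones (0.507% of all probes in that direction), and without 3F-PaS-iPS #1 the brightest was (1.02%). The Ncl probe was called between PaS and OP clones without 4F-OP-iPS #4 (5% of all).

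Between the sources, with 3F- and 4F-clones averaged, Tfrc was the only call. It was higher in PaS- than in OP-iPS clones by 1.07 ± 0.28 (SE, adjusted p = 0.0326; 1 of 22 probes against 1.82% of all). The call was lost without the 3 clones low in Sox2 and Nanog (0.0398% of all probes), and with normexp or with the slide as a fixed block. It was also lost without any of 4F-PaS-iPS #1 or #4, 3F-PaS-iPS #3 or #5, 4F-OP-iPS #1 or #3, or 3F-OP-iPS #1, whereas 3 probes were called without 4F-PaS-iPS #3 (1.67% of all probes higher) or 4F-OP-iPS #2 (6.91%), and 4 without 4F-OP-iPS #4 (4.82%). Between PaS and TTF clones 0 were called by limma, against 1.30% of all probes, and between OP and TTF clones 0, against 0.0290%. An unadjusted p under 0.05 was seen for 6 and 0 of the 22 probes in these comparisons. Of all 27623 probes, 4588 and 2805 had such a p.

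**Figure D3:**
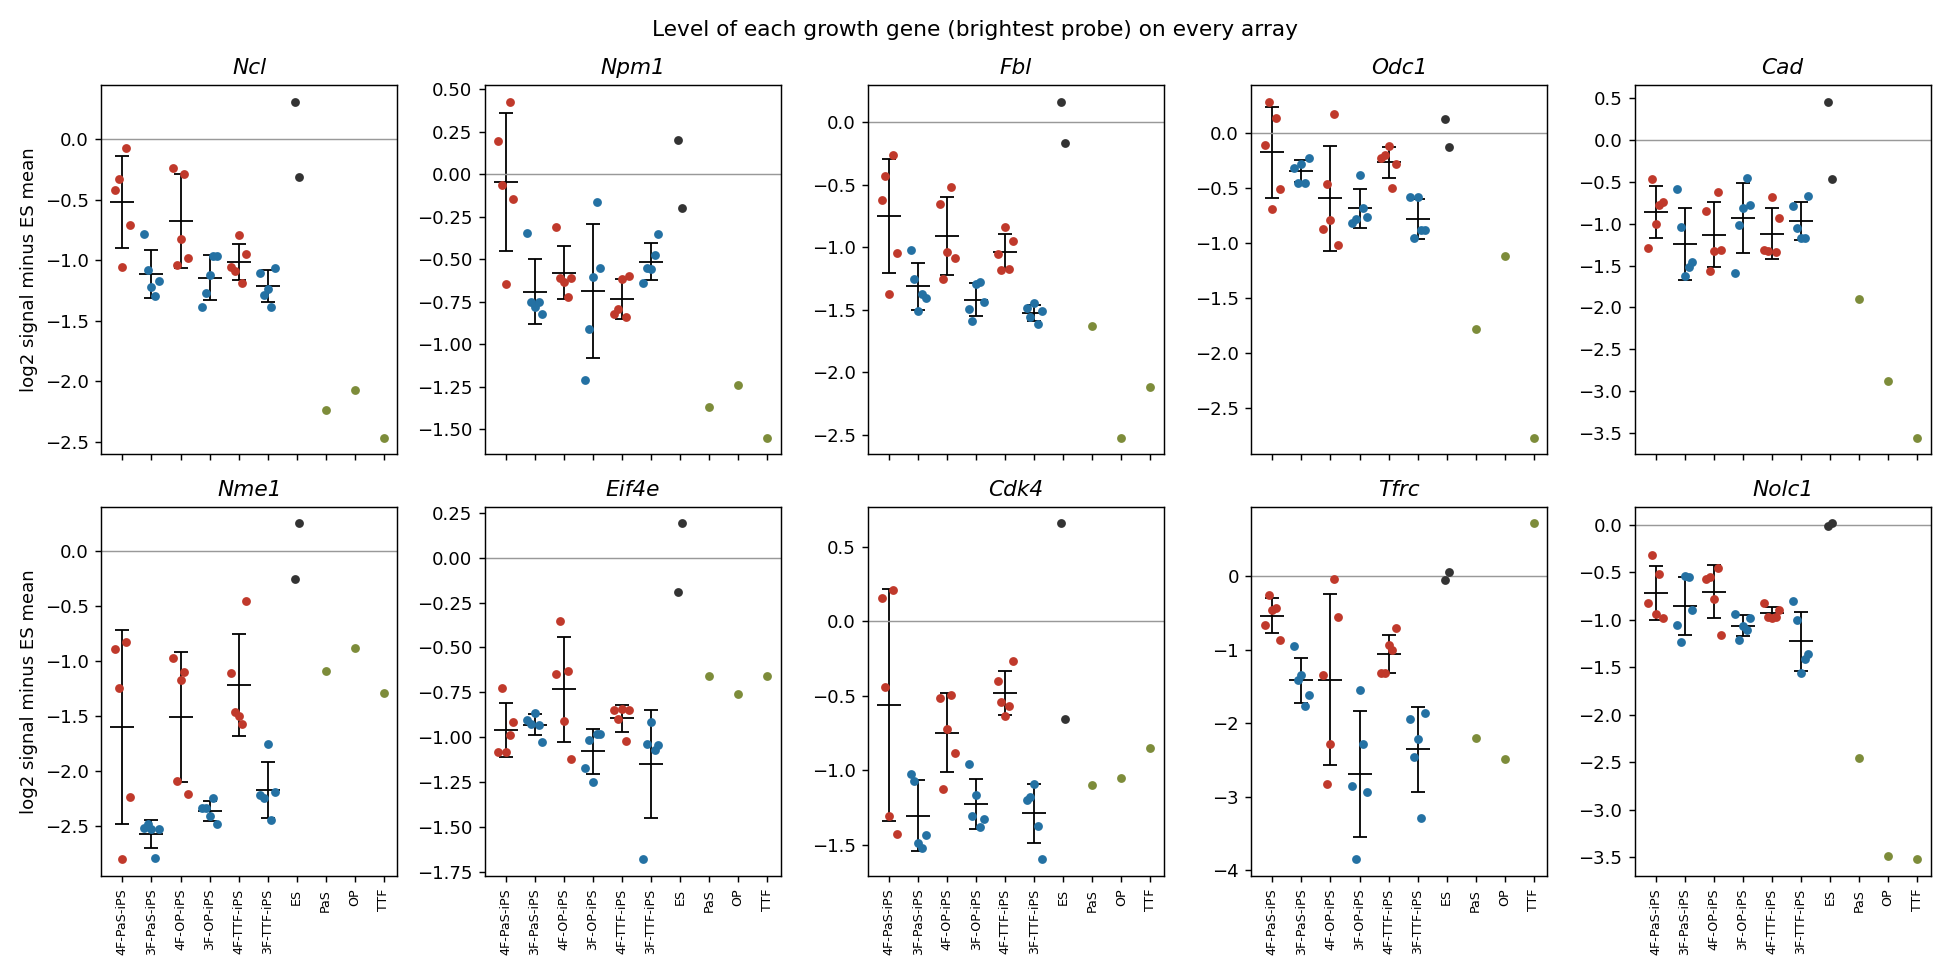
Level of the brightest probe of each of the 10 genes on all 35 arrays, as log2 signal minus the mean of the ES arrays (y axis) by group (x axis; 4F red, 3F blue, ES black, source cells green). Points are arrays and bars the mean ± SD of 5 clones; the median of the clones is below 0 for all 10 genes, and the source cells are lowest for 6 of them.

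Against ES cells, the clones were lower on 19 of 22 probes, of all 10 genes, and higher on 0, where 28.8% of all probes were called lower and 23.6% higher. The 19 include the dim Eif4e probe, which was tested only because it is above background in ES, so that its place below ES was set by the filter, and without it 18 of 21 were lower. Nme1 lay furthest below ES among the brightest probes, by 1.91 ± 0.35 (SE, adjusted p = 5.5e-05), with clones from -2.80 to -0.46 and a median of -2.21. Next were Tfrc, by 1.58 ± 0.46 (adjusted p = 0.00534), and Fbl, by 1.16 ± 0.19 (adjusted p = 2.0e-05). Cad, Eif4e, Ncl, Cdk4 and Nolc1 were lower by 1.04, 0.96, 0.95, 0.94 and 0.92. Npm1 and Odc1 were nearest to ES, with medians of -0.61 and -0.48, and the brightest Odc1 probe missed the threshold, at -0.48 ± 0.21 (SE, adjusted p = 0.0629). Of the 30 clones, all lay below the lower ES array for Nme1, Fbl, Eif4e and Nolc1, 29 for Tfrc and Cad, and 20 for Cdk4.

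The ES arrays differed from each other. Cdk4 was 1.31 higher in EB-3 than in RF8 cells and Cad 0.92 higher, whereas Nme1 was 0.50 lower. Either array alone leaves ES without a replicate, so no calls are given against it. On the brightest probes the clone median lay nearer to RF8 than to EB-3 for Cdk4, Cad, Ncl, Npm1, Fbl and Odc1. It lay nearer to EB-3 for Nme1, Eif4e, Tfrc and Nolc1. How far the clones were below ES thus depends on the array taken as the reference. The fibroblast markers were 3.20 above the ES mean in RF8 and 3.20 below it in EB-3 cells. Both ES arrays were scanned, and their signals extracted, in other sessions than the clones, RF8 alone and EB-3 with the source cells, so session and cell type cannot be told apart.

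In the source cells, with 1 array each and no test, the genes did not all lie on the same side of the clones. On their brightest probes Ncl, Npm1, Fbl, Odc1, Cad and Nolc1 were below all 30 clones in PaS, OP and TTF cells alike. Over all member probes, 13, 12 and 13 of 22 were below all clones in PaS, OP and TTF cells, where 28.7%, 27.5% and 29.9% of all probes were. The probes of a gene did not always lie alike: the other Nolc1 probe (A_52_P89099) was at -1.14, -1.05 and -1.48, above its clone median of -1.52, and Ncl probes A_52_P429650 and A_52_P620748 and, in OP cells, Odc1 probe A_52_P436238 were not below all clones. On the brightest probe Nolc1 was at -2.46, -3.49 and -3.52 in PaS, OP and TTF cells, and Cad was at -1.91, -2.88 and -3.56. Nme1 and Eif4e went the other way. Nme1 was at -1.09, -0.88 and -1.29 in these cells, above all but 4, 2 and 8 clones, and Eif4e was at -0.66, -0.76 and -0.66, above all but 3, 4 and 3 clones. Cdk4, at -1.10, -1.06 and -0.85, was near the median of the clones.

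Tfrc was at -2.20 in PaS and -2.48 in OP cells, yet at 0.71 in TTF cells, above every clone and the ES mean. On the TTF array the mean of the 5 blood markers was 8.48 above that of ES, with all 5 well above background. This mean was at -0.51 and -1.05 in PaS and OP cells. Relative to the clone median, Ptprc, Itgam, Emr1 and Cd68 were at 11.96, 8.70, 14.59 and 4.75 in TTF cells. Hbb-b1, at -0.006, was not raised. The part of these markers in the Tfrc level was not tested. In these bulk samples more cells of a type and more RNA per cell cannot be told apart. The Myc coding probe was at -0.68, -1.25 and -0.76 in PaS, OP and TTF cells, within the range of the clones.

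The second comparison set each gene against the Myc coding probe from clone to clone. Over the 30 clones 3 of 22 probes (13.6%) had a slope called, all positive, against 14.8% of all probes with a positive and 19.6% with a negative slope, so the share of these genes was near the background. One of the 3 was the dim Eif4e probe, whose signal in most clones was not well above background, and without it 2 of 21 were called. Nme1 rose by 0.17 ± 0.04 (SE) per unit of log2 Myc (limma, adjusted p = 0.00294) and Cdk4 by 0.12 ± 0.03 (adjusted p = 0.00435). Without 4F-PaS-iPS #4, 4 of the 21 probes were called (15.8% of all positive).

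Nme1 had Pearson's r = 0.587 (permutation p = 0.00080, two-sided, 100000 resamples) and Spearman's rho = 0.603 (permutation p = 0.00074). Cdk4 had r = 0.574 (permutation p = 0.00118) and rho = 0.713 (permutation p = 3e-05). With 4F-OP-iPS #1 and #3, whose Myc levels are farthest from the median, left out, r was 0.508 for Nme1 and 0.585 for Cdk4. Of all probes, 7.65% had an r at or above that of Nme1 and 8.23% at or above that of Cdk4.

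Within the slides both relations were still seen, with r = 0.570 for Nme1 (permutation p = 0.028) and 0.678 for Cdk4 (permutation p = 0.00604). Within the groups r was 0.351 for Nme1 (permutation p = 0.0856) and 0.434 for Cdk4 (permutation p = 0.0103), and with the group in the limma fit 0 of 22 slopes were called, against 8.69% of all probes with a positive slope, those of Nme1 and Cdk4 being 0.11 ± 0.06 and 0.10 ± 0.04 (SE, adjusted p = 0.204 and 0.106). Without the 3 clones low in Sox2 and Nanog the slope of Nme1 missed the threshold (0.16 ± 0.06; adjusted p = 0.0554) and that of Cdk4 did not (0.15 ± 0.04; adjusted p = 0.0175), while with normexp that of Cdk4 missed it (0.14 ± 0.05; adjusted p = 0.0508) and that of Nme1 did not (0.19 ± 0.07; adjusted p = 0.0370). Without the 2 clones labelled 3F-OP-iPS that are high in Myc, 4 probes were called (15.4% of all positive), of Nme1, Cdk4, Fbl and Ncl, and r was 0.710 for Nme1 and 0.639 for Cdk4.

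Fbl was weaker, with r = 0.408 (permutation p = 0.0242) and rho = 0.455 (permutation p = 0.0123), a slope that missed the threshold over all probes (adjusted p = 0.0675), and r = 0.341 without the 2 farthest clones. The rest had no relation past the threshold on their brightest probe by Pearson's r. It was 0.277 for Nolc1 (permutation p = 0.137; rho = 0.378, permutation p = 0.0397), 0.264 for Ncl (permutation p = 0.16), 0.219 for Tfrc (permutation p = 0.244) and 0.125 for Eif4e (permutation p = 0.512). It was -0.00201 for Odc1, -0.167 for Npm1 and -0.176 for Cad. Other probes of a gene did not always lie alike. The Ncl probe A_52_P429650 had r = 0.393 (permutation p = 0.0304) and rho = 0.590 (permutation p = 0.00065). The Ncl probes A_51_P134007 and A_52_P620748 had r = 0.274 and 0.0722. The Eif4e probe A_51_P131895 had r = 0.410 (permutation p = 0.024) and rho = 0.470 (permutation p = 0.00955). The p-values of the 10 genes are not adjusted; those of the slopes are adjusted over 27620 probes. With the most downstream Myc probe (A_51_P102096) in place of the coding probe, 0 slopes were called (3.88% of all probes positive), while r was 0.505 for Odc1 (permutation p = 0.00436), 0.467 for Cdk4 (permutation p = 0.00985), 0.420 for Nme1 (permutation p = 0.0207) and 0.374 for Nolc1 (permutation p = 0.0428).

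**Figure D4:**
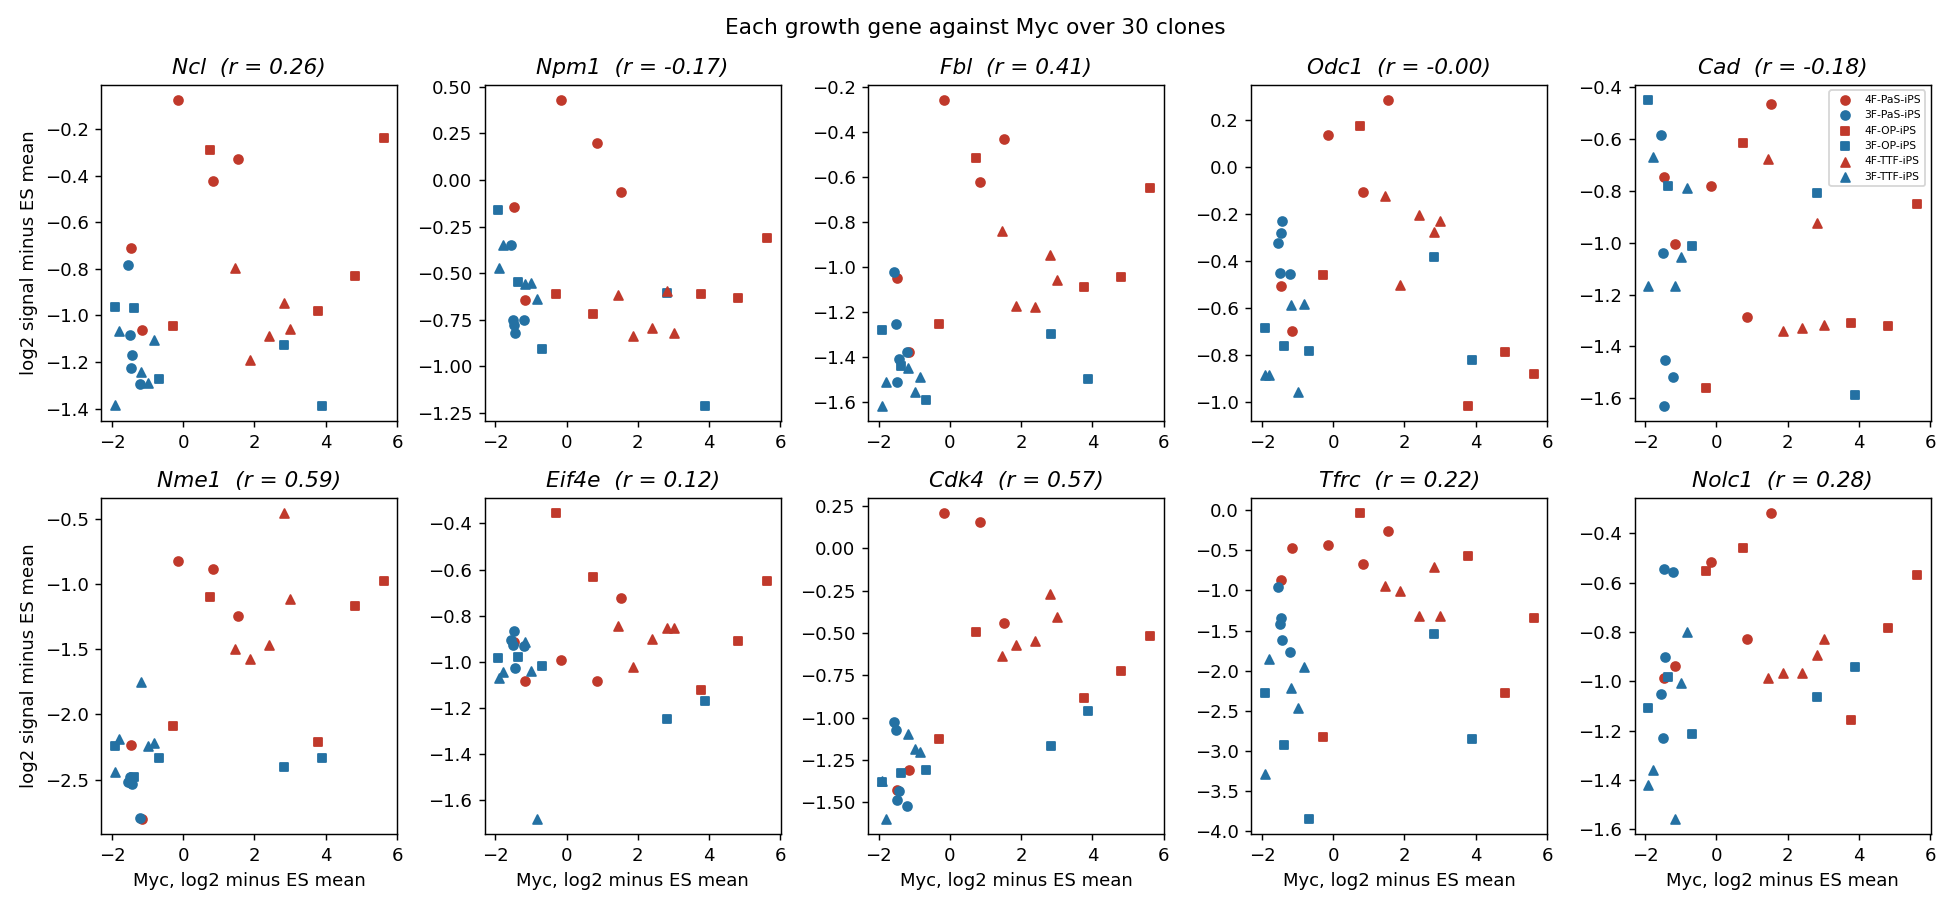
Each gene's brightest probe (y axis, log2 minus ES mean) against the Myc coding probe (x axis, log2 minus ES mean) in the 30 clones, coloured by factors (4F red, 3F blue) with a symbol for each source. Nme1 (r = 0.587) and Cdk4 (r = 0.574) rise with Myc, and the 3F-OP-iPS clones at 3.89 and 2.83 lie below the 4F-clones of like Myc level for Nme1.

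Within each source r was as follows, in values that also hold the difference between 3F- and 4F-clones, and a difference in r or slope between sources was not tested. In the 10 TTF clones r was 0.974 for Cdk4, 0.883 for Fbl, 0.880 for Nme1, 0.870 for Odc1 and 0.844 for Tfrc, but -0.792 for Npm1 and -0.35 for Cad, and 8 slopes were called, 7 without the dim Eif4e probe, all positive (12.1% of all probes), while over all probes the middle 90% of r lay between -0.869 and 0.870. In the 10 PaS clones all 10 genes had a positive r, from 0.212 for Eif4e to 0.837 for Nme1, where the same range over all probes was -0.709 to 0.736, and 0 slopes were called (0.0724% of all probes positive). Myc was at 0.84, 1.53 and -0.15 in 4F-PaS-iPS #1, #2 and #4 and between -1.56 and -1.15 in the other PaS clones. By rank, rho was 0.358 for Nme1 (permutation p = 0.31), 0.430 for Cdk4 (permutation p = 0.217) and -0.333 for Eif4e (permutation p = 0.349). Nolc1 alone had a permutation p under 0.05 (rho = 0.709, permutation p = 0.0268). In the 10 OP clones 6 genes were positive, Cdk4 at 0.709 foremost, and that range was -0.792 to 0.775. Among the 15 4F-clones r was 0.448 for Nme1 and 0.259 for Cdk4, and among the 15 3F-clones 0.0303 and 0.512. The last value fell to 0.301 without the 2 clones high in Myc.

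The genes also varied with each other. Of the 45 pairs of genes, 43 had a positive r over the 30 clones, with a median of 0.420, where pairs among 2755 of the probes tested, spaced evenly by name, had a median of 0.000630 and were positive in 50.1% of cases. Within groups the median was 0.320 and 43 pairs were positive. The closest pairs were Ncl with Fbl, at r = 0.936, and Nme1 with Cdk4, at 0.892. Cad stood furthest apart, with a median r of 0.192 to the others, and its closest partner was Npm1 at 0.517. All points share the scaling of their array, and no test was made.

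**Figure D5:**
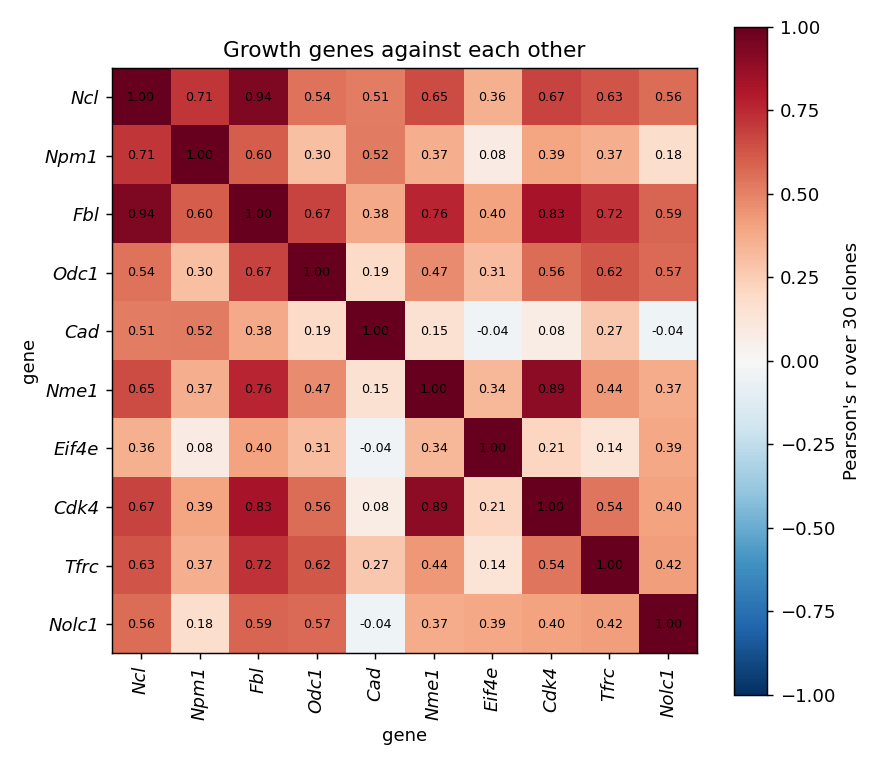
Pearson's r over 30 clones between the brightest probes of the 10 genes (both axes; colour from -1 to 1, with each r written in its cell). The nucleolar genes Ncl and Fbl (0.936) and the pair Nme1 and Cdk4 (0.892) are the closest, and Cad has the lowest values.

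Averaged over the 10 genes and centred on the median, the clones ran from -0.43 in 3F-OP-iPS #2 to 0.79 in 4F-PaS-iPS #4. The named genes whose brightest probe followed this mean most closely over the 30 clones were Tomm40, which imports proteins into mitochondria (r = 0.963), and Dhodh, an enzyme of pyrimidine synthesis (r = 0.947). Unnamed transcripts on the array, AK048462 (r = 0.970), ENSMUST00000003906 (r = 0.967) and ENSMUST00000071702 (r = 0.955), were as close.

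Other growth genes known as Myc targets were read from a list of 65 genes, of which 57 were matched by name and tested on their brightest probe. The 57 also hold Cdkn1a, which Myc is known to repress, and Eif4ebp1, which holds Eif4e back. The counts thus pool genes of unlike roles. Between 3F- and 4F-clones over the 3 sources, 25 of 57 were lower (43.9%, against 9.89% of all probes) and 0 higher, while 16 were lower without the 3 clones low in Sox2 and Nanog (6.47% of all probes), 13 with normexp background correction (5.31%) and 6 with the slide as a random block (1.88%). The list of nucleotide, polyamine and one-carbon metabolism, in which Ldha was also counted, had 13 of 18 called. Translation factors had 4 of 8, nucleolar genes 4 of 14, mitochondrial genes and chaperones 3 of 8 and cell cycle genes 1 of 9. Ldha, which makes lactate, fell by 0.71 ± 0.10 (SE, adjusted p = 6.9e-05), the translation factor Eif5a by 0.64 ± 0.10 (adjusted p = 0.000176) and Amd1, of the polyamine pathway, by 0.43 ± 0.08 (adjusted p = 0.000431).

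By source, 6 of the 57 were lower in 3F-clones in OP and in TTF clones (10.5% each, against 3.26% and 4.36% of all probes), and 0 in PaS clones, where 0.0145% of all probes were. With the slide as a random block the 6 became 1 in OP clones, Ldha (0.264% of all probes), and 0 in TTF clones (0.00362%), and with the slide as a fixed block 0 in TTF clones (0.0145%). With normexp 1 was called in each, Ldha and Tyms (0.67% and 1.32%), and without the 3 clones low in Sox2 and Nanog 0 in OP and 4 in TTF clones (0.322% and 2.25%). In OP clones Ldha fell by 0.85 ± 0.18 (SE, adjusted p = 0.00598), Sms, spermine synthase, by 0.96 ± 0.23 (adjusted p = 0.0132) and Eif5a by 0.74 ± 0.18 (adjusted p = 0.0143). In TTF clones Eif5a fell by 0.79 ± 0.18 (adjusted p = 0.00719), Tyms, thymidylate synthase, by 1.04 ± 0.25 (adjusted p = 0.00983) and Amd1 by 0.54 ± 0.13 (adjusted p = 0.0123). Between sources, Nip7 was higher and Cdkn1a lower in PaS- than OP-iPS clones, by 0.37 ± 0.10 (adjusted p = 0.0388) and -0.71 ± 0.20 (adjusted p = 0.0448), and Eif1a was higher in PaS- than TTF-iPS clones by 0.33 ± 0.08 (adjusted p = 0.0339). Between PaS and OP clones this is 1 of 57 in each direction (1.75%), near the 1.82% of all probes higher and 1.87% lower. Between PaS and TTF clones it is 1 of 57 higher, against 0.597% of all. All 3 calls were lost with the slide as a random block and without the clones low in Sox2 and Nanog.

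Against ES, 38 of the 57 were lower (66.7%, against 28.8% of all probes) and 4 higher (7.02%, against 23.6%). Amd1 was lower by 1.16 ± 0.15 (SE, adjusted p = 8.8e-07), Shmt1, a one-carbon enzyme, by 2.02 ± 0.29 (adjusted p = 2.9e-06) and Tyms by 1.92 ± 0.29 (adjusted p = 4.4e-06). The genes higher in clones included Tfam, at 2.00 ± 0.20 (adjusted p = 9.8e-09), Cdkn1a, an inhibitor of the cell cycle that Myc is known to repress, at 2.82 ± 0.33 (adjusted p = 1.2e-07), and Cdc25a at 0.98 ± 0.25 (adjusted p = 0.00193).

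With Myc over the clones, 16 of the 57 had a positive slope (28.1%, against 14.8% of all probes) and 6 a negative one (10.5%, against 19.6%). The 16 became 7 with normexp (9.23% of all probes), 6 with the slide as a fixed block (13.9%) and 5 without the 3 clones low in Sox2 and Nanog (8.85%). E2f2, a factor for entry into S phase, rose by 0.51 ± 0.05 (SE) per unit of log2 Myc (adjusted p = 2.0e-08), Ccnd1, the cyclin that partners Cdk4, by 0.27 ± 0.04 (adjusted p = 1.1e-05) and Eif5a by 0.12 ± 0.03 (adjusted p = 0.000626). Cks2 fell by 0.21 ± 0.03 (adjusted p = 3.0e-07), Eif4ebp1, which holds Eif4e back, by 0.08 ± 0.02 (adjusted p = 0.00909) and Gadd45a by 0.11 ± 0.04 (adjusted p = 0.0273).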

How the data were processed

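The authors hybridised Cy3-labelled total RNA to Agilent mouse arrays; per the file headers, signals were extracted with Agilent Feature Extraction, in a different version for each of 3 scan sessions. The deposited intensity is the processed signal, background-subtracted by that software. Here outlier-flagged spots were left out (54 to 152 per array), log2 values of replicate spots averaged, and each array's 75th percentile over 41174 gene probes subtracted. Tested probes were those that exceeded background throughout 1 or more of the 6 clone groups or ES. Contrasts over 7 groups and the slope on Myc over 30 clones were fitted with limma 3.58.1 in R 4.3.3. Permutation tests used 100000 resamples. The authors' table of log2 values, centred per gene, was an alternative, as were normexp (offset 50), quantile normalization, no filter, a 2-fold minimum, slide or clone number as a block, and leaving out clones. Members and lists were chosen with earlier results of these data known. Named were all members, up to 3 listed genes per comparison and direction by adjusted p, and the 5 genes nearest the members' mean. Clones are separate lines, and whether cultures were repeated was not given in the sources used here. The fits were tested on simulated data. Changes of 1 and 0.5 log2 between 3F- and 4F-clones were recovered for 65% and 36% of changed probes. Myc slopes of 0.2 and 0.1 were recovered for 56% and 21%, so a gene that was not called may still differ. The number of arrays limits the precision. No probe of the members was saturated.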

Additional observations from a re-analysis of the deposited data

Results flagged for a closer look

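In 4 of 66 groups of 5 clones that were read for the 10 genes and Myc, 1 clone lay far from the other 4, by a gap of over 0.71 of the group's range, where chance flags about 1 in 20 such groups. Npm1 in 3F-PaS-iPS #1 was at -0.35, with the others between -0.82 and -0.75. Npm1 in 4F-OP-iPS #1, a clone low in Sox2 and Nanog, was at -0.31, with the others between -0.72 and -0.61. Nme1 in 3F-PaS-iPS #4 was at -2.79, with the others between -2.53 and -2.48. Eif4e in 3F-TTF-iPS #1 was at -1.68, with the others between -1.07 and -0.91.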

How the results depend on the processing

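Of the 22 probes, the 10 called lower in 3F-clones over the sources became 5 with normexp (5.31% of all probes), 5 with the slide as a random block (1.88%) and 1 at 2-fold (1.07%), and 8 to 13 with each clone left out. In TTF clones the 4 (4.36% of all probes) became 2 at 2-fold (1.81%), 2 with no filter (2.38%), 0 with normexp (1.32%), 0 with the slide as a fixed or random block (0.0145% and 0.00362%), 1 without the clones low in Sox2 and Nanog (2.25%), and 1 to 7 with each clone left out. The dim Eif4e probe was among them in each fit named here with a count above 0, and the count without it was 3, then 1, 1 and 0. In OP clones the 1 became 0 with normexp (0.67% of all probes), no filter (1.51%), the slide as a random block (0.264%) or without the clones low in Sox2 and Nanog (0.322%), and 0 to 4 with each clone left out. In PaS clones the 0 became 1 with normexp (1.04%; 0 to 9 with each clone left out). The 1 between PaS and OP clones became 0 with normexp (0.963% of all probes higher), the slide as a fixed block (1.00%) or without the clones low in Sox2 and Nanog (0.0398%), and 0 to 4 with each clone left out. Those between PaS and TTF, and OP and TTF, stayed at 0 in every fit run. Against ES, the 19 became 8 at 2-fold (19.0% of all probes), and 19 to 20 with each clone left out.

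The 3 Myc slopes (14.8% of all probes positive) became 1 with normexp (9.23%), 7 on ranks (15.6%), 8 in TTF clones (12.1%), and 0 with the group as a factor (8.69%), in PaS clones (0.0724%), in OP clones (4.19%), in 4F-clones with or without source as a factor (1.65% and 5.57%), in 3F-clones (6.71%), or with Myc's most downstream probe (3.88%) (2 to 5 with each clone left out). The tests between sources went from 0 to 2 with quantile normalization (Npm1 and the dim Eif4e probe, PaS against TTF clones), and 0 to 2 with each clone left out. Of the 10 genes, 3 had a positive r past an unadjusted permutation p of 0.05, and 7 did in PaS clones, 6 in TTF clones, 1 in OP clones, 0 in 4F-clones, 1 in 3F-clones, 0 in 3F-clones without the 2 high in Myc and 1 within groups. By rho, Nolc1 alone passed in PaS clones. In limma an unadjusted slope p under 0.05, in either direction, was seen for 43.6% of all probes over the 30 clones, 22.0% in PaS, 39.5% in TTF and 26.9% in OP clones, 27.6% in 4F- and 28.3% in 3F-clones. The slope of Odc1, -0.00031 ± 0.03 (SE) over all clones, was 0.14 in TTF clones. The cause of these changes was not tested. Normexp moved the median difference over all probes from 0.00 to -0.22 for 3F against 4F in PaS clones. Fits without the 2 clones labelled 3F-OP-iPS that are high in Myc, with source as a factor in 4F-clones, correlations within groups and slides, and those holding the array's scaling and share of probes above background were chosen after seeing the data.

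With the clone number as a replicate block, 9 of 22 were called over the sources, 3 in TTF clones and 4 for the Myc slope, and no other count changed. Clones minus ES could not be fitted with it. Clones of the same number share only the number: 16 of 75 such pairs had deviations with r over 0.1, and 6 of 30 clones correlated best with their own number. With the slide as a fixed block, 3F against 4F in PaS and OP clones and over the sources, PaS against TTF, OP against TTF and clones against ES could not be fitted.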
